A study of Mus musculus with 6 samples.

Results

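The collagens, the laminins and the enzymes that cut, crosslink or protect them were followed in mouse liver after partial hepatectomy (PHX), an operation that takes out some liver lobes and makes the others regrow. The genes were taken by symbol: every row of the count table named as a collagen chain, a laminin chain, a matrix metalloproteinase (Mmp), an ADAMTS or ADAMTS-like gene, a tissue inhibitor of metalloproteinases (Timp) or a lysyl oxidase. This gave 64 of 12027 rows. The annotation holds 112 symbols of that form. The other 48 had no row and were not analysed here, among them Lox, Timp1, Mmp9, Mmp12, Mmp13 and Col8a1. All rows hold counts from the OGA mice described below, while some hold none from the OGT mice. A missing row therefore does not show that a gene was unexpressed in the OGT mice. The 64th gene, Col4a3bp (RefSeq symbol Cert1), encodes a ceramide transfer protein and matched by its prefix only, so 63 matrix genes remain.

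The series gave 6 libraries of whole liver from male C57BL/6 mice, 8 weeks old, each from RNA of 3 mice pooled in equal amounts, with 1 library per group. The groups were OGT-KO (genotype OGT-/y) and OGT control (OGTfl/y) at 28 days after PHX, and OGA-KO (OGA-/-) and OGA control (OGAfl/fl) at 14 and at 28 days. OGT attaches the sugar O-GlcNAc to proteins and OGA takes it off. The series' text states that both knockouts are specific to hepatocytes; the Cre driver is not given in the sources used here, and OGT-KO livers of 14 days were not analysed here. All groups had PHX, and the controls carry floxed alleles.

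Total counts ranged from 20433100 in OGT-KO to 29327722 in OGA-KO at 14 days. Levels are CPM, gene counts relative to the library total after TMM scaling, and ratios are log2 ratios of these, each followed by its 95% counting interval. With 1 pooled library per group no difference could be set against replicates, and the intervals cover counting error only. In OGA-KO, Oga counts were 282 at 14 days (control 1525) and 317 at 28 days (control 1760). Ogt had 1205 counts in OGT-KO and 1339 in OGT control, so the transcript count was a weak check of the OGT-KO label. All 14 hepatocyte markers listed had a row. The OGA-KO library of 28 days also held pancreas transcripts: 11 of 12 pancreas genes were at least 2-fold higher than in control, with 214 CPM summed in OGA-KO and 27.3 CPM in control. Their part in the results below was not tested, and the counts from the fit are given without that library too.

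Collagen chains wind into helices of identical or different partners. Fibrillar collagens (types I, III and V) form the fibres of scars and of the portal tracts, type IV collagen and laminins build basement membranes, and type VI forms beaded filaments. Lysyl oxidases crosslink the fibres, matrix metalloproteinases and ADAMTS enzymes cut matrix proteins or process their precursors, and TIMPs inhibit these enzymes. In injured liver the main source of fibrillar collagen is the stellate cell, which turns into a myofibroblast, while hepatocytes are a known source of collagen XVIII.

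Most matrix genes were higher in OGT-KO than in OGT control. RNA came from whole liver, so a different number of cells of a type and a different amount of RNA per cell cannot be told apart. By a size rule (2-fold or more, with 1 CPM or more in whichever library was higher) 49 of the 62 members at that level were higher and 4 were lower, where 16.4% of all 11803 genes were higher and 11.7% lower. The edgeR quasi-likelihood fit over all 6 libraries, with Benjamini-Hochberg adjustment, called 48 of 63 members risen and 6 fallen, where it called 26.1% of 12026 genes risen and 26.6% fallen. The median log2 ratio was 2.0 over the members and 0.00 over all rows. The fit took its spread from the OGA libraries, where it rests on how the OGA-KO effect differed between 14 and 28 days. That is no spread among like libraries, and the OGT libraries were assumed to vary alike. Without the OGA-KO library of 28 days and without a term for the mouse line, the fit called 32 members risen and 0 fallen (45 at an unadjusted p under 0.05), where 5.09% of genes were risen and 2.62% fallen. Its spread was then the difference between the OGT and OGA controls at 28 days alone, and OGT-KO was set against both controls. The calls lost in that fit therefore do not show what leaving out the library by itself does. Calls lost there, with those of the 6 that fell, include Mmp14, Adamtsl2, Col15a1, Adamts1, Adamts5, Adamts7, Adamts14, Mmp24, Lama4, Lamc3, Col7a1, Col13a1 and Loxl3. DESeq2 called 35 members risen and 5 fallen, where 10% and 14% of genes were. OGT-KO was the highest of the 6 libraries for 50 members, against 36.9% of all rows, and stood at least 2-fold above all 5 others for 43 members, against 11.9%. The words rose and fell are kept for genes past the edgeR test.

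**Figure D1:**
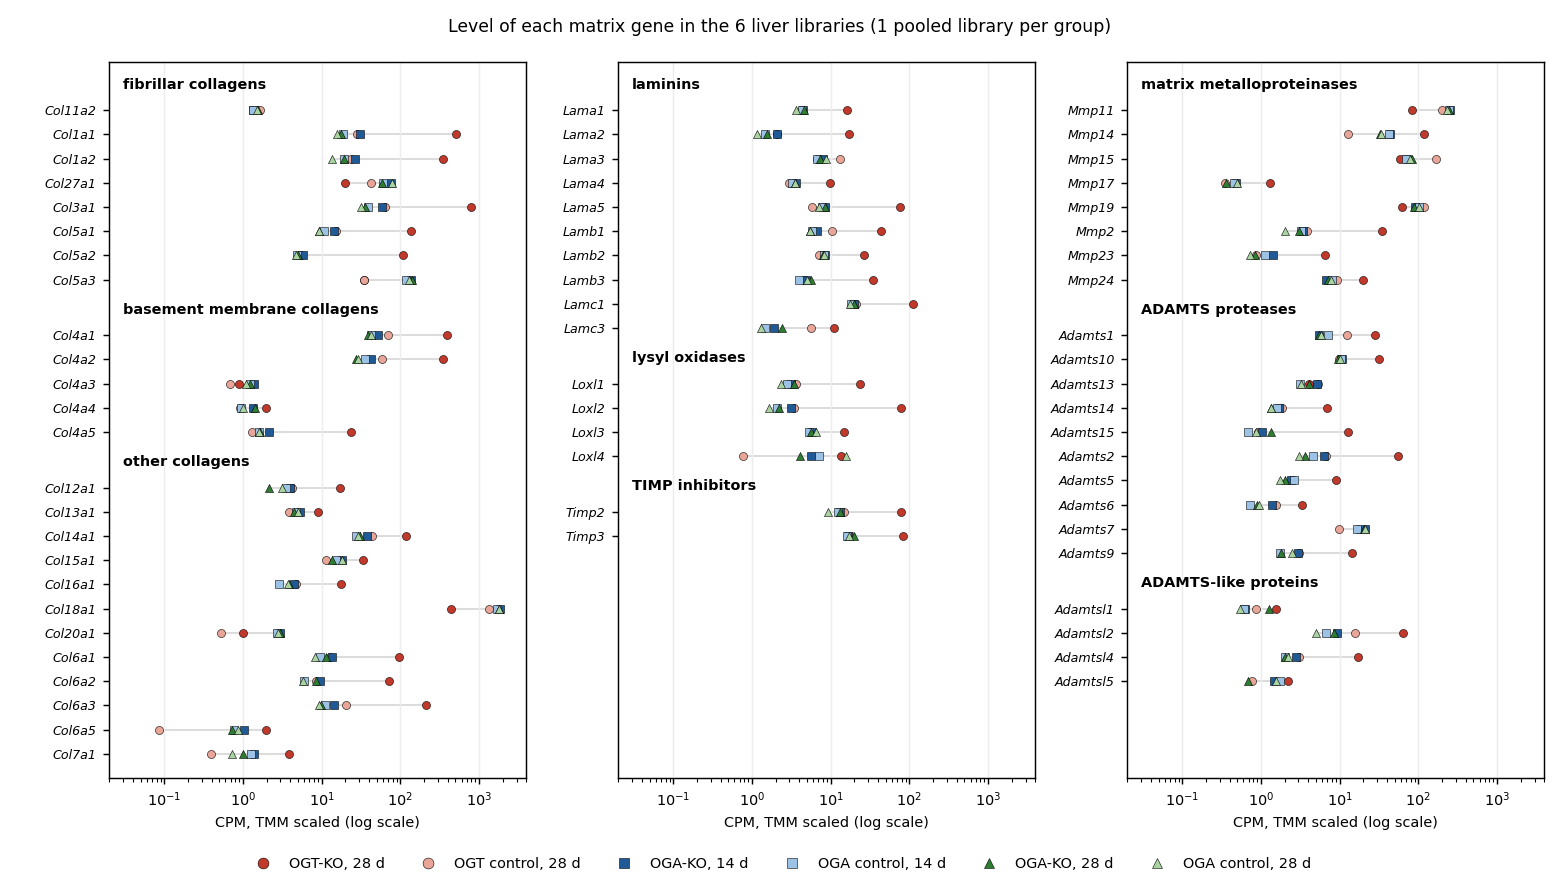
CPM (TMM scaled, log axis) of each of the 63 matrix genes, 1 row per gene, with 1 point for each of the 6 libraries and no error bars, since each group is 1 pooled library. OGT-KO (dark red) lies to the right of the other points for 50 genes, while Col18a1, Mmp11, Mmp15, Mmp19 and Col27a1 have it at the left end.

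The fibrillar collagens had the largest summed level of any family in OGT-KO, at 1950 CPM over 8 rows against 214 CPM in OGT control, a ratio of 9.11. Of the 8 rows 5 rose and 1 fell. Col3a1, the chain of type III collagen, had 785 CPM in OGT-KO and 63.5 CPM in OGT control (log2 ratio 3.63, 3.55 to 3.71), with 58.5 and 39.4 CPM in OGA-KO and its control at 14 days and 35.7 and 31.8 CPM at 28 days. Col1a1 and Col1a2 encode the chains of type I collagen. Col1a1 had 509.9 CPM in OGT-KO against 28.3 CPM in OGT control (log2 ratio 4.17, 4.06 to 4.29), beside 30.7 and 18.9 CPM in the OGA-KO and OGA control libraries at 14 days and 17.4 and 15.6 CPM at 28 days. Col1a2 had 353 CPM in OGT-KO and 23.5 CPM in OGT control (log2 ratio 3.91, 3.79 to 4.04), while the OGA-KO and OGA control pair had 26.5 and 19.3 CPM at 14 days and 19.3 and 13.5 CPM at 28 days. For all 3 genes OGT-KO stood at least 12.4-fold above the highest other library, while the other 5 libraries spanned at most 2-fold. By edgeR, Col1a2 rose with the smallest adjusted p of the 3 (log2 3.91, SE 0.11, adjusted p = 8.33e-05). Col1a1 rose as well (log2 4.17, SE 0.20, adjusted p = 0.000167). Per kb of transcript, Col1a1 was at 1.30 times the level of its partner Col1a2 in OGT-KO, 1.09 times in OGT control and 0.813 to 1.04 times in the OGA libraries.

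Type V collagen, which sets the diameter of type I fibrils, differed between its chains. Col5a2 had 108 CPM in OGT-KO and 5.42 CPM in OGT control (log2 ratio 4.30, 4.07 to 4.59), with 5.81 and 4.90 CPM in OGA-KO and its control at 14 days and 5.01 and 4.74 CPM at 28 days. Col5a1 had 138 CPM in OGT-KO against 15.3 CPM in OGT control (log2 ratio 3.16, 3.01 to 3.33), beside 14.4 and 10.8 CPM in the OGA-KO and OGA control libraries at 14 days and 9.34 and 9.40 CPM at 28 days. Both rose, Col5a2 by the wider margin, and the level of Col5a1 over Col5a2 per kb was 1.0 in OGT-KO, 2.23 in OGT control and 1.47 to 1.95 in the OGA libraries. The third chain, Col5a3, had 34.2 CPM in OGT-KO and 34.2 CPM in OGT control (log2 ratio -0.00, -0.14 to 0.14), while the OGA-KO and OGA control pair had 138 and 118 CPM at 14 days and 139 and 128 CPM at 28 days. By edgeR it stood at -0.00 (adjusted p = 1), and by column totals it was called higher (log2 0.37, adjusted p = 0.0305). Its OGT-KO and OGT control levels were equal within counting error, and both lay below all 4 OGA libraries. Col27a1, a fibrillar chain best known from cartilage, fell in OGT-KO (adjusted p = 0.0208) and was lowest there. It had 20.1 CPM in OGT-KO and 42.3 CPM in OGT control (log2 ratio -1.07, -1.23 to -0.93), with 76.1 and 59.4 CPM in OGA-KO and its control at 14 days and 59.1 and 77.7 CPM at 28 days. Its call was lost in 3 of 5 alternatives, column totals among them. Col11a2, at 1.33 to 1.65 CPM in all 6 libraries, was not called.

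Col1a2 and Col3a1, which rose together, are shown with the region around their start sites because their sequences differ. Each window runs from 250 bases before to 50 bases after the start site, in RefSeq's GRCm38.p6 coordinates: Col1a2 at chr6:4505368-4505667, plus strand, and Col3a1 at chr1:45311288-45311587, plus strand. Capitals mark, on either strand, the TATA motif (TATAAA), the CCAAT box, the GC box (GGGCGG) and the AP-1 type of site (TGANTCA).
Col1a2: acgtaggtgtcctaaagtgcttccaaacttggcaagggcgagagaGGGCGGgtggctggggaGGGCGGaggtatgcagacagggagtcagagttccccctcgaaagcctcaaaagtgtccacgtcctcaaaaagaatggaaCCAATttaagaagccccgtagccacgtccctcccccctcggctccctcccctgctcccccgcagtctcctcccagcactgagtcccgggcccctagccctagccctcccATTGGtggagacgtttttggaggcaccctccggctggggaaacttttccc
Col3a1: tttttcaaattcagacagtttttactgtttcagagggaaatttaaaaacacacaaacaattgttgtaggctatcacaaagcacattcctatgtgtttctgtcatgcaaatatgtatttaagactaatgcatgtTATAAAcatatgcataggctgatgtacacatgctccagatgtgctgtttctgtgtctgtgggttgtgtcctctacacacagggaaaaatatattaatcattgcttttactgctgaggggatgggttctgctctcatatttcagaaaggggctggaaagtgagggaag
The Col1a2 window holds CCAAT at 2 places and GGGCGG at 2 places, and the Col3a1 window holds TATAAA once and none of the others. These are matches of letters and not measured binding sites.

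Of the basement membrane collagens 3 of 5 rows rose and none fell, with 773 CPM summed in OGT-KO and 131 CPM in OGT control. Col4a1 and Col4a2 encode the chains of the common type IV network. Col4a1 had 395 CPM in OGT-KO against 70.2 CPM in OGT control (log2 ratio 2.49, 2.42 to 2.57), beside 52.1 and 42.5 CPM in the OGA-KO and OGA control libraries at 14 days and 39.0 and 42.4 CPM at 28 days. Col4a2 had 351 CPM in OGT-KO and 58.2 CPM in OGT control (log2 ratio 2.59, 2.51 to 2.68), while the OGA-KO and OGA control pair had 42.7 and 35.4 CPM at 14 days and 27.5 and 29.3 CPM at 28 days. OGT-KO was above the next library, OGT control, 5.63-fold for Col4a1 and 6.03-fold for Col4a2. Their ratio per kb stayed close: 1.10 in OGT-KO, 1.18 in OGT control and 1.17 to 1.41 in the OGA libraries. Col4a5, a chain of specialised basement membranes such as those of kidney, rose from a low level. It had 23.9 CPM in OGT-KO and 1.30 CPM in OGT control (log2 ratio 4.12, 3.67 to 4.78), with 2.15 and 1.59 CPM in OGA-KO and its control at 14 days and 1.66 and 1.60 CPM at 28 days. Col4a3 and Col4a4, its partners in kidney, lay at 0.693 to 1.97 CPM over the libraries and did not pass the edgeR test (adjusted p = 0.556 and 0.0681). Col4a4 did pass the size rule in OGT-KO (log2 ratio 1.05).

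Col4a1 and Col4a2 lie head to head and share a promoter region, which is why both windows are shown. They are at chr8:11312777-11313076, minus strand, and at chr8:11312555-11312854, plus strand, in GRCm38.p6, with 21 bases between the start sites. Capitals mark the same letters as above.
Col4a1: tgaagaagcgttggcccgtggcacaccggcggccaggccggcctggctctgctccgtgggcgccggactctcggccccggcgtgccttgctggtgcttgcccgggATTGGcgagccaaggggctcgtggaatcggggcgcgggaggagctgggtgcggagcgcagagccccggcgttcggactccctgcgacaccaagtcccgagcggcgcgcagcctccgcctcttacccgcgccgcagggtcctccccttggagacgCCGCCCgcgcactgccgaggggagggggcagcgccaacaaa
Col4a2: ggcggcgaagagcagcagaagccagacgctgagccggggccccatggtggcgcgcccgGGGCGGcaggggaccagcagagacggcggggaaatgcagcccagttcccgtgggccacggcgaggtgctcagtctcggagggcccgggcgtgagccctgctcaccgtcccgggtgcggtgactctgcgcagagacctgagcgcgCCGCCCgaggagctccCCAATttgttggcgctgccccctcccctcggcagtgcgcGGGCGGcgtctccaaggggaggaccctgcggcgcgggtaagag
The windows have 78 bases in common, read on opposite strands, and these hold the CCGCCC of the Col4a1 window, which reads as the last GGGCGG of the Col4a2 window. In the annotation the first exons also overlap by 22 bases. Whether the counting used strand is not given in the sources used here, so reads in that overlap cannot be assigned to 1 gene.

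Of the 12 other collagens 10 rose, and Col18a1 fell. The beaded filament chains of type VI collagen rose together. Col6a3 had 209 CPM in OGT-KO against 20.7 CPM in OGT control (log2 ratio 3.33, 3.20 to 3.47), beside 14.3 and 10.9 CPM in the OGA-KO and OGA control libraries at 14 days and 9.91 and 9.28 CPM at 28 days. Col6a1 had 95.8 CPM in OGT-KO and 12.9 CPM in OGT control (log2 ratio 2.89, 2.72 to 3.07), while the OGA-KO and OGA control pair had 13.7 and 9.59 CPM at 14 days and 11.3 and 8.33 CPM at 28 days. Col6a2 had 71.3 CPM in OGT-KO and 8.58 CPM in OGT control (log2 ratio 3.04, 2.84 to 3.27), with 9.47 and 5.96 CPM in OGA-KO and its control at 14 days and 8.57 and 5.85 CPM at 28 days. OGT-KO lay outside the range of the other 5 libraries for each of these chains, 7.0-fold to 10.1-fold above the next one. Per kb, Col6a3 was at 0.885 times the level of Col6a1 in OGT-KO, 0.653 times in OGT control and 0.356 to 0.463 times in the OGA libraries. Col6a5, a rarely expressed chain of the same type, had 55 counts in OGT-KO and 2 in OGT control. It had 1.97 CPM in OGT-KO against 0.0866 CPM in OGT control (log2 ratio 3.63, 2.59 to 7.59), beside 1.04 and 0.775 CPM in the OGA-KO and OGA control libraries at 14 days and 0.728 and 0.879 CPM at 28 days, and its call was lost in 3 of 5 alternatives.

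Fibril-associated collagens sit on the surface of larger fibres, and Col14a1, Col16a1 and Col12a1 rose. Col14a1 had 118 CPM in OGT-KO and 43.2 CPM in OGT control (log2 ratio 1.44, 1.34 to 1.55), while the OGA-KO and OGA control pair had 37.9 and 27 CPM at 14 days and 30.9 and 29.2 CPM at 28 days. Col16a1 had 17.8 CPM in OGT-KO and 4.77 CPM in OGT control (log2 ratio 1.88, 1.60 to 2.21), with 4.48 and 2.86 CPM in OGA-KO and its control at 14 days and 3.84 and 3.71 CPM at 28 days. Col12a1 had 17.1 CPM in OGT-KO against 4.20 CPM in OGT control (log2 ratio 2.0, 1.71 to 2.35), beside 3.96 and 3.51 CPM in the OGA-KO and OGA control libraries at 14 days and 2.14 and 3.09 CPM at 28 days. For all 3, OGT-KO was above every other library, by 2.73-fold to 4.07-fold. Col7a1, which forms the anchoring fibrils of skin, had 3.83 CPM in OGT-KO and 0.390 CPM in OGT control (log2 ratio 3.06, 2.32 to 4.46), while the OGA-KO and OGA control pair had 1.37 and 1.27 CPM at 14 days and 1.01 and 0.726 CPM at 28 days. Col13a1, a transmembrane collagen, stood at 8.92 CPM in OGT-KO and 3.90 CPM in OGT control and rose, with its call lost in 3 of 5 alternatives. Col20a1, also of the fibril-associated kind, was at 0.520 to 2.95 CPM and was not called.

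Collagens XV and XVIII are the multiplexins, basement membrane proteoglycans whose ends can be cut off as restin and endostatin, and they moved in opposite directions. Col18a1 had 436 CPM in OGT-KO and 1328 CPM in OGT control (log2 ratio -1.61, -1.64 to -1.58), with 1829 and 1679.7 CPM in OGA-KO and its control at 14 days and 1807 and 1801 CPM at 28 days. It was by far the most abundant collagen transcript in every library other than OGT-KO, and it fell in OGT-KO (log2 -1.61, SE 0.10, adjusted p = 0.000307). Its call was lost in the fit that drops both the OGA-KO library of 28 days and the line term (adjusted p = 0.115). Col15a1 had 33.8 CPM in OGT-KO against 11.3 CPM in OGT control (log2 ratio 1.58, 1.38 to 1.78), beside 17.9 and 15.3 CPM in the OGA-KO and OGA control libraries at 14 days and 13.6 and 18.1 CPM at 28 days. Col15a1 rose, but OGT-KO stood only 1.87-fold above the highest OGA library.

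The make-up of the collagen transcripts differed accordingly. Col18a1 held 11.7% (exact interval 11.5% to 11.9%) of the 104357 collagen counts in OGT-KO and 74.4% (74.0% to 74.9%) of the 41189 in OGT control. At 14 days it held 76.5% in OGA-KO against 79.3% in OGA control, and at 28 days 80.2% in each. Col1a1, Col1a2 and Col3a1 together held 44.1% in OGT-KO, 6.46% in OGT control and 2.71% to 4.84% in the OGA libraries. Col4a1 and Col4a2 together held 19.97% in OGT-KO, 7.20% in OGT control and 2.95% to 3.96% in the OGA libraries. The 3 type VI chains held 10.1% in OGT-KO and 2.36% in OGT control. With each gene's counts divided by its length, Col18a1 held 12.5% in OGT-KO and 76.4% in OGT control.

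**Figure D2:**
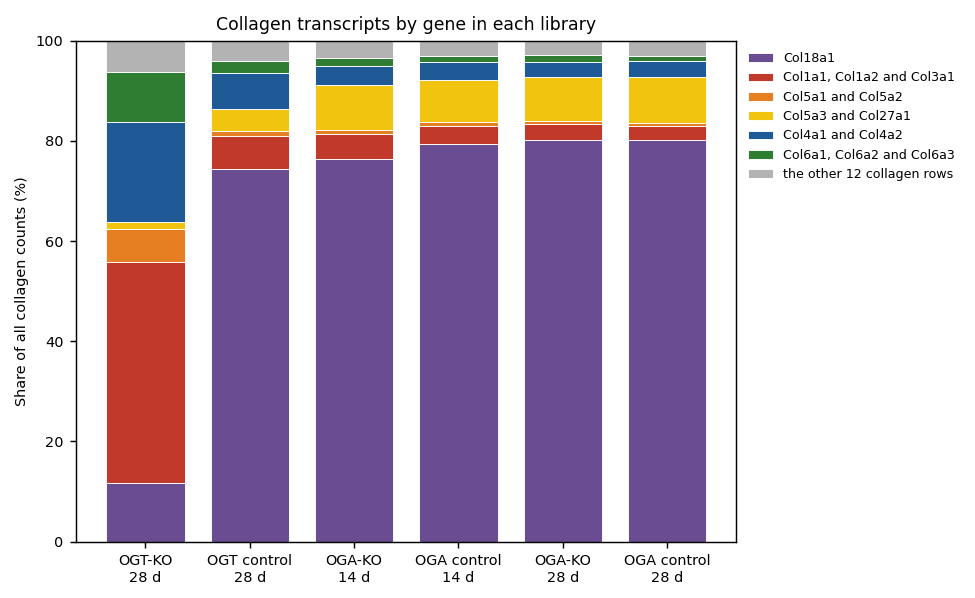
Share of all collagen counts (percent, stacked bars) held by each group of collagen genes in each of the 6 libraries, over 25 collagen rows. Col18a1 (purple) takes 11.7% in OGT-KO and 74.4% to 80.2% in the other 5 libraries, and Col1a1, Col1a2 and Col3a1 (red) take 44.1% in OGT-KO and 2.71% to 6.46% in the others.

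The first of 2 Col18a1 windows in RefSeq is shown because Col18a1 was the leading collagen transcript of the controls and fell (chr10:77166481-77166780, minus strand, GRCm38.p6). This window holds CCAAT once and GGGCGG at 3 places. The second window (chr10:77113656-77113955, minus strand) is not shown and holds none of the marked motifs. Which of the start sites the Col18a1 counts came from was not tested.
Col18a1: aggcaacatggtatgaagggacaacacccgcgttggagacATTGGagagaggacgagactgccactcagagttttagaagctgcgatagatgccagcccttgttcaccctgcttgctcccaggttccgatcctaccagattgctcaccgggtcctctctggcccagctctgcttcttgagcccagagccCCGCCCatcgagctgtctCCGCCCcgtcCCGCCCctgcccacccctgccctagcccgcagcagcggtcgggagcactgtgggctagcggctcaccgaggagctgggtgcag
Over the 45 windows of the 41 matrix genes found in the table, GGGCGG occurred in 73.3%, against 35.7% of all 32851 windows of the same length. Those windows cover 27025 genes, many without a row in the count table, so the shares do not set matrix genes against other genes with a row. It occurred in 73.5% of the 34 windows of genes that rose and in 4 of the 5 windows of genes that fell. CCAAT occurred in 24.4% of the matrix gene windows and 37.4% of all windows, TATAAA in 11.1% and 13.6%, and TGANTCA in 2.22% and 7.81%. All were counted on both strands and anywhere in the window, and a match is a description only.

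Of the 10 laminin chains 9 rose and 1 fell, with 352 CPM summed in OGT-KO and 77.4 CPM in OGT control. A laminin joins an alpha, a beta and a gamma chain. The gamma chain Lamc1, part of most laminins, had 109.9 CPM in OGT-KO and 21.3 CPM in OGT control (log2 ratio 2.36, 2.23 to 2.51), while the OGA-KO and OGA control pair had 19.6 and 18.3 CPM at 14 days and 19.7 and 17.8 CPM at 28 days. The beta chain Lamb1 had 44.1 CPM in OGT-KO and 10.5 CPM in OGT control (log2 ratio 2.06, 1.87 to 2.28), with 6.66 and 5.88 CPM in OGA-KO and its control at 14 days and 5.50 and 5.50 CPM at 28 days. The beta chain Lamb2 had 26.5 CPM in OGT-KO against 7.06 CPM in OGT control (log2 ratio 1.90, 1.66 to 2.16), beside 8.47 and 8.12 CPM in the OGA-KO and OGA control libraries at 14 days and 7.97 and 8.14 CPM at 28 days. OGT-KO was the highest library for each, by 3.13-fold to 5.16-fold. Lamb3, a chain of epithelial laminin, had 34.9 CPM in OGT-KO and 4.59 CPM in OGT control (log2 ratio 2.91, 2.64 to 3.23), while the OGA-KO and OGA control pair had 4.81 and 3.96 CPM at 14 days and 5.62 and 5.0 CPM at 28 days. Its usual partner Lama3 did not follow it, and had 6.73 CPM in OGT-KO and 13.1 CPM in OGT control (log2 ratio -0.95, -1.23 to -0.69), with 7.99 and 6.69 CPM in OGA-KO and its control at 14 days and 7.28 and 8.79 CPM at 28 days. Lama3 fell in OGT-KO relative to its control (adjusted p = 0.0185), yet the OGT-KO level lay within the 6.69 to 8.79 CPM of the OGA libraries, and the call was lost in 4 of 5 alternatives.

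Among the other alpha chains Lama5, found in epithelial and vessel basement membranes, rose the most. It had 75.9 CPM in OGT-KO against 5.85 CPM in OGT control (log2 ratio 3.68, 3.45 to 3.96), beside 8.59 and 7.84 CPM in the OGA-KO and OGA control libraries at 14 days and 8.41 and 7.22 CPM at 28 days. Lama2, a chain of muscle and stromal laminin, had 17.2 CPM in OGT-KO and 2.08 CPM in OGT control (log2 ratio 3.0, 2.61 to 3.50), while the OGA-KO and OGA control pair had 2.07 and 1.47 CPM at 14 days and 1.54 and 1.15 CPM at 28 days. Lama1, the embryonic alpha chain, had 16.2 CPM in OGT-KO and 4.33 CPM in OGT control (log2 ratio 1.88, 1.59 to 2.23), with 4.40 and 4.29 CPM in OGA-KO and its control at 14 days and 4.57 and 3.63 CPM at 28 days. These 3 genes were 3.54-fold to 8.84-fold above the next library. Per kb, Lama5 was at 0.462 times the level of Lamc1 in OGT-KO, 0.184 times in OGT control and 0.271 to 0.293 times in the OGA libraries. Lama4, the endothelial chain, stood at 9.96 CPM in OGT-KO and 2.99 CPM in OGT control and rose. Lamc3 had 10.9 CPM in OGT-KO against 5.59 CPM in OGT control (log2 ratio 0.96, 0.67 to 1.28), beside 1.92 and 1.47 CPM in the OGA-KO and OGA control libraries at 14 days and 2.43 and 1.30 CPM at 28 days. Lamc3 rose by less than 2-fold, OGT control was itself above all 4 OGA libraries, and the call was lost in 3 of 5 alternatives.

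The matrix metalloproteinases were split: 5 of 8 rows rose and 3 fell, and their summed level was 383 CPM in OGT-KO and 513 CPM in OGT control. The 3 that fell were the 3 with the highest level per kb in OGT control. Mmp11, a secreted enzyme known from remodelling stroma, had 84.2 CPM in OGT-KO and 202 CPM in OGT control (log2 ratio -1.26, -1.33 to -1.19), while the OGA-KO and OGA control pair had 254 and 242 CPM at 14 days and 247 and 229.8 CPM at 28 days. Mmp15, a membrane-bound enzyme, had 58.2 CPM in OGT-KO and 165 CPM in OGT control (log2 ratio -1.50, -1.59 to -1.42), with 72.2 and 69.5 CPM in OGA-KO and its control at 14 days and 82.3 and 78.9 CPM at 28 days. Mmp19, another secreted enzyme, had 61.4 CPM in OGT-KO against 119 CPM in OGT control (log2 ratio -0.95, -1.04 to -0.87), beside 91.4 and 102 CPM in the OGA-KO and OGA control libraries at 14 days and 87.4 and 102 CPM at 28 days. OGT-KO was the lowest library for all 3. For Mmp15 the OGT control library was the one that stood apart, at 165 CPM against 69.5 to 82.3 CPM in the OGA libraries, and its call was lost without the line term (adjusted p up to 0.261 over the alternatives). Exons of Mmp19 overlap Tmem198b on the other strand over 22.3% of their length, and those of Mmp11 overlap Chchd10 over 5.58%. Tmem198b had 580 counts in OGT-KO and 705 in OGT control, and Chchd10 had 5399 in OGT-KO and 11127 in OGT control.

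The metalloproteinases that rose are led by Mmp14 and Mmp2, a membrane-bound enzyme and the gelatinase that it activates. Mmp14 had 117 CPM in OGT-KO and 12.9 CPM in OGT control (log2 ratio 3.18, 3.01 to 3.36), while the OGA-KO and OGA control pair had 43.6 and 41.9 CPM at 14 days and 33.0 and 34.0 CPM at 28 days. Mmp2 had 34.5 CPM in OGT-KO and 3.90 CPM in OGT control (log2 ratio 3.12, 2.83 to 3.47), with 3.44 and 3.22 CPM in OGA-KO and its control at 14 days and 3.07 and 2.02 CPM at 28 days. Both were highest in OGT-KO, Mmp2 by 8.85-fold and Mmp14 by 2.68-fold over the next library. For Mmp14 the OGT control level lay below all 4 OGA libraries. Mmp24, a membrane-bound enzyme of brain, had 19.9 CPM in OGT-KO against 9.14 CPM in OGT control (log2 ratio 1.11, 0.89 to 1.36), beside 6.81 and 8.12 CPM in the OGA-KO and OGA control libraries at 14 days and 7.16 and 7.68 CPM at 28 days. Its exons overlap BC029722 on the other strand over 13.6% of their length, and BC029722 had 1043 counts in OGT-KO and 510 in OGT control. Mmp23 had 6.52 CPM in OGT-KO and 0.866 CPM in OGT control (log2 ratio 2.80, 2.24 to 3.66), while the OGA-KO and OGA control pair had 1.44 and 1.14 CPM at 14 days and 0.849 and 0.726 CPM at 28 days. Mmp17 rose at 1.29 CPM in OGT-KO and 0.347 CPM in OGT control, with its call lost in 3 of 5 alternatives.

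Both TIMP rows rose, with 162 CPM summed in OGT-KO and 32.8 CPM in OGT control. Timp2, an inhibitor that also helps Mmp14 activate Mmp2, had 78.3 CPM in OGT-KO and 14.8 CPM in OGT control (log2 ratio 2.39, 2.24 to 2.57), with 13.3 and 12.3 CPM in OGA-KO and its control at 14 days and 13.3 and 9.40 CPM at 28 days. Timp3, which is bound to the matrix, had 84.0 CPM in OGT-KO against 18 CPM in OGT control (log2 ratio 2.22, 2.07 to 2.37), beside 16.8 and 16.4 CPM in the OGA-KO and OGA control libraries at 14 days and 20.1 and 17.2 CPM at 28 days. OGT-KO was the highest library for both, 5.28-fold above the next one for Timp2 and 4.19-fold for Timp3. The exons of Timp3 overlap Syn3 on the other strand over 21.3% of their length, and Syn3 had 1177 counts in OGT-KO and 241 in OGT control. Per kb, Mmp14 was at 1.71 times the level of Timp2 in OGT-KO, 0.995 times in OGT control and 2.84 to 4.14 times in the OGA libraries. Mmp2 was at 0.532 times the level of Timp2 in OGT-KO, 0.317 times in OGT control and 0.260 to 0.316 times in the OGA libraries.

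Of the 10 ADAMTS proteases 8 rose and none fell, with 183 CPM summed in OGT-KO and 53.9 CPM in OGT control. Adamts2, which removes the amino-terminal end of fibrillar procollagens, had 54.8 CPM in OGT-KO and 6.8 CPM in OGT control (log2 ratio 2.99, 2.77 to 3.26), while the OGA-KO and OGA control pair had 6.29 and 4.53 CPM at 14 days and 3.64 and 3.06 CPM at 28 days. Its relative Adamts14 rose as well, at 6.91 CPM in OGT-KO and 1.86 CPM in OGT control. Among the enzymes that cut proteoglycans, Adamts1 had 28.5 CPM in OGT-KO and 12.4 CPM in OGT control (log2 ratio 1.19, 1.0 to 1.40), with 5.51 and 7.02 CPM in OGA-KO and its control at 14 days and 5.50 and 5.85 CPM at 28 days. Adamts9 had 14.3 CPM in OGT-KO against 3.03 CPM in OGT control (log2 ratio 2.20, 1.86 to 2.62), beside 3.0 and 1.75 CPM in the OGA-KO and OGA control libraries at 14 days and 1.78 and 2.48 CPM at 28 days. Adamts15 had 12.9 CPM in OGT-KO and 0.910 CPM in OGT control (log2 ratio 3.71, 3.19 to 4.53), while the OGA-KO and OGA control pair had 1.04 and 0.694 CPM at 14 days and 1.33 and 0.879 CPM at 28 days. OGT-KO was highest for all 5 of these genes, and the Adamts1 call was lost in 3 of 5 alternatives. Adamts5 rose too, at 9.10 CPM in OGT-KO and 2.51 CPM in OGT control. Adamts10, which binds fibrillin, had 32.1 CPM in OGT-KO and 9.75 CPM in OGT control (log2 ratio 1.71, 1.51 to 1.94), with 10.7 and 10.3 CPM in OGA-KO and its control at 14 days and 9.62 and 9.97 CPM at 28 days. Adamts7, an enzyme studied in vessels, had 17.0 CPM in OGT-KO against 9.70 CPM in OGT control (log2 ratio 0.81, 0.58 to 1.05), beside 20.8 and 16.6 CPM in the OGA-KO and OGA control libraries at 14 days and 20.3 and 21.1 CPM at 28 days, so that it rose relative to its own control but lay within the range of the OGA libraries, and its call was lost in 3 of 5 alternatives (adjusted p up to 0.895). Adamts13, which cuts von Willebrand factor and is made in the liver by stellate cells, was not called, at 4.08 CPM in OGT-KO and 5.33 CPM in OGT control (log2 ratio -0.38, adjusted p = 0.258). Adamts6 did not pass the edgeR test either, at 3.33 CPM in OGT-KO and 1.56 CPM in OGT control, though it passed the size rule.

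The ADAMTS-like proteins have no protease domain and bind microfibrils. Adamtsl2 had 63.7 CPM in OGT-KO and 15.8 CPM in OGT control (log2 ratio 2.01, 1.85 to 2.18), while the OGA-KO and OGA control pair had 9.21 and 6.69 CPM at 14 days and 8.49 and 5.08 CPM at 28 days. Adamtsl4 had 17.0 CPM in OGT-KO and 3.03 CPM in OGT control (log2 ratio 2.46, 2.12 to 2.87), with 2.81 and 2.0 CPM in OGA-KO and its control at 14 days and 2.02 and 2.22 CPM at 28 days. Both rose. Adamtsl1 and Adamtsl5, at 0.535 to 2.18 CPM in all libraries, did not pass the edgeR test (adjusted p = 0.232 and 0.0536), though Adamtsl5 passed the size rule in OGT-KO.

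All 4 lysyl oxidase rows rose, with 130 CPM summed in OGT-KO and 13.3 CPM in OGT control. Loxl2, which crosslinks type I and type IV collagen, had the highest OGT-KO ratio of all 63 members (log2 4.51, SE 0.16, adjusted p = 0.000111). It had 77.9 CPM in OGT-KO against 3.42 CPM in OGT control (log2 ratio 4.48, 4.18 to 4.85), beside 3.15 and 2.08 CPM in the OGA-KO and OGA control libraries at 14 days and 2.22 and 1.64 CPM at 28 days. Loxl1, known for its role in elastic fibres, had 23.4 CPM in OGT-KO and 3.64 CPM in OGT control (log2 ratio 2.66, 2.35 to 3.03), while the OGA-KO and OGA control pair had 3.11 and 2.82 CPM at 14 days and 3.40 and 2.37 CPM at 28 days. Loxl3 had 14.9 CPM in OGT-KO and 5.42 CPM in OGT control (log2 ratio 1.44, 1.16 to 1.76), with 5.77 and 5.39 CPM in OGA-KO and its control at 14 days and 5.66 and 6.57 CPM at 28 days. For these 3 genes OGT-KO was the highest library. Loxl4 was the exception, and had 13.6 CPM in OGT-KO against 0.780 CPM in OGT control (log2 ratio 4.0, 3.45 to 4.90), beside 5.66 and 7.14 CPM in the OGA-KO and OGA control libraries at 14 days and 4.08 and 15.6 CPM at 28 days. Its OGT-KO level lay within the 4.08 to 15.6 CPM of the OGA libraries, and OGT control, with 18 counts, was the library that stood apart. Exons of Loxl3 overlap Htra2 on the other strand over 11.6% of their length, and Htra2 had 1393 counts in OGT-KO and 1223 in OGT control. The Loxl4 call was lost without the line term (adjusted p up to 0.782 over the alternatives).

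**Figure D3:**
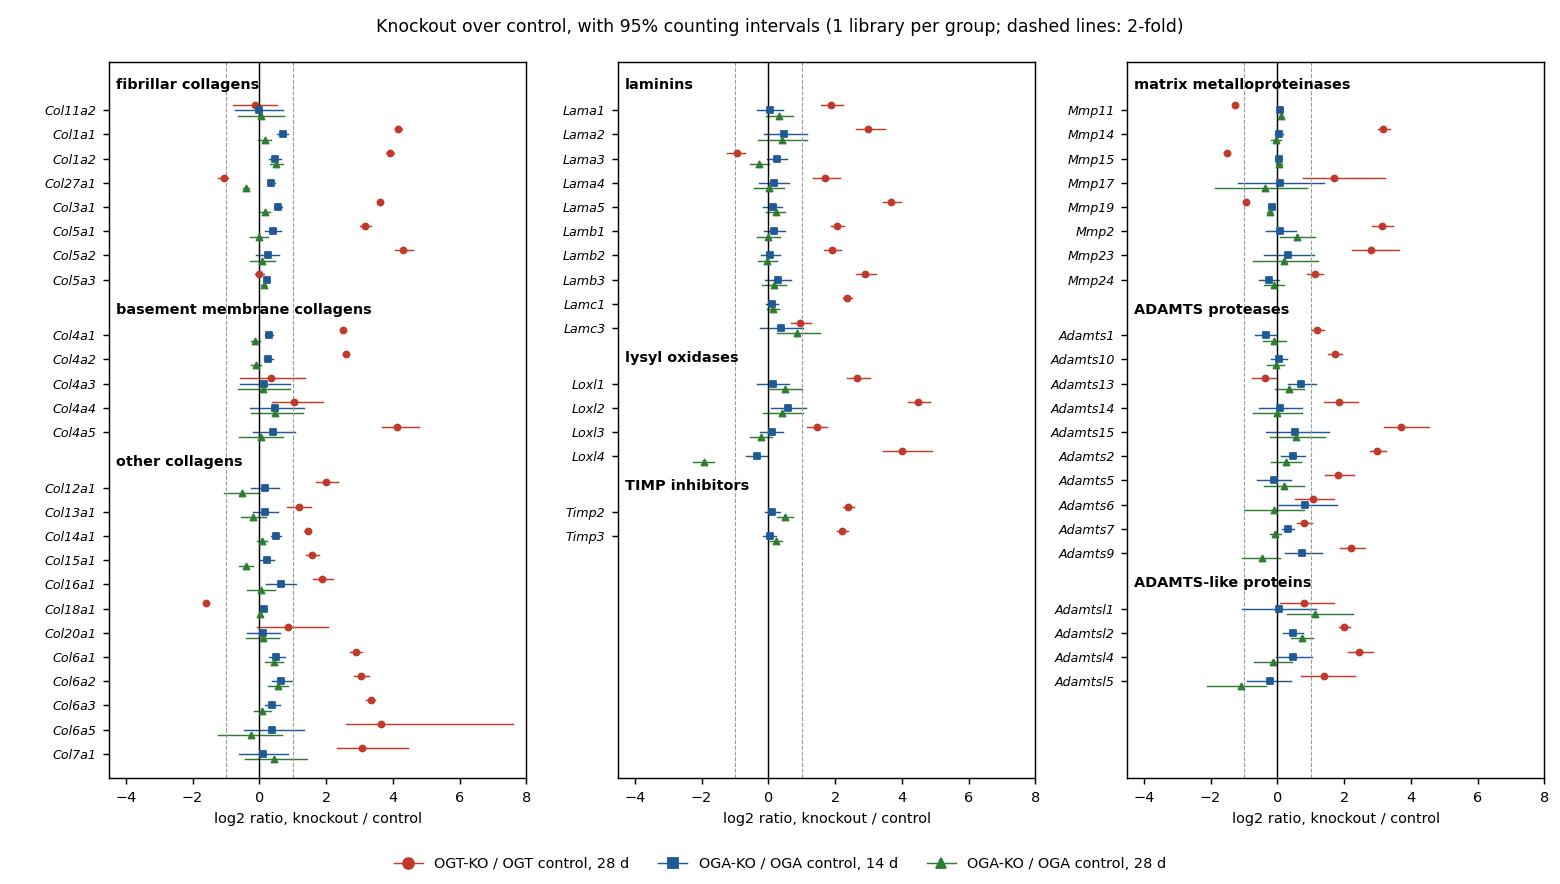
Log2 ratio of knockout over control for each of the 63 matrix genes, for OGT-KO at 28 days (red circles), OGA-KO at 14 days (blue squares) and OGA-KO at 28 days (green triangles); lines are 95% counting intervals, and dashed lines mark 2-fold. OGT-KO ratios spread from -1.61 for Col18a1 to 4.48 for Loxl2, while OGA-KO ratios stay between -0.34 and 0.83 at 14 days and between -1.92 and 1.12 at 28 days.

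Levels per kb of the longest coding transcript put the members of each library in order. In OGT-KO the order began with Col3a1 at 141 CPM per kb, Col1a1 at 86.0, Col18a1 at 77.9, Col1a2 at 66.0, Col4a1 at 59.7 and Col4a2 at 54.4. In OGT control it began with Col18a1 at 237 CPM per kb, Mmp11 at 88.2, Mmp19 at 35.0 and Mmp15 at 32.2, followed by Col3a1 at 11.4. In all 4 OGA libraries Col18a1, Mmp11 and Mmp19 took the first 3 places, at 300.2 to 327, 100.5 to 111 and 25.7 to 30.1 CPM per kb. So the 4 members with the highest control level were all among the 6 that fell. The control library stands in both the level and the ratio here, so the relation is a description only.

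**Figure D4:**
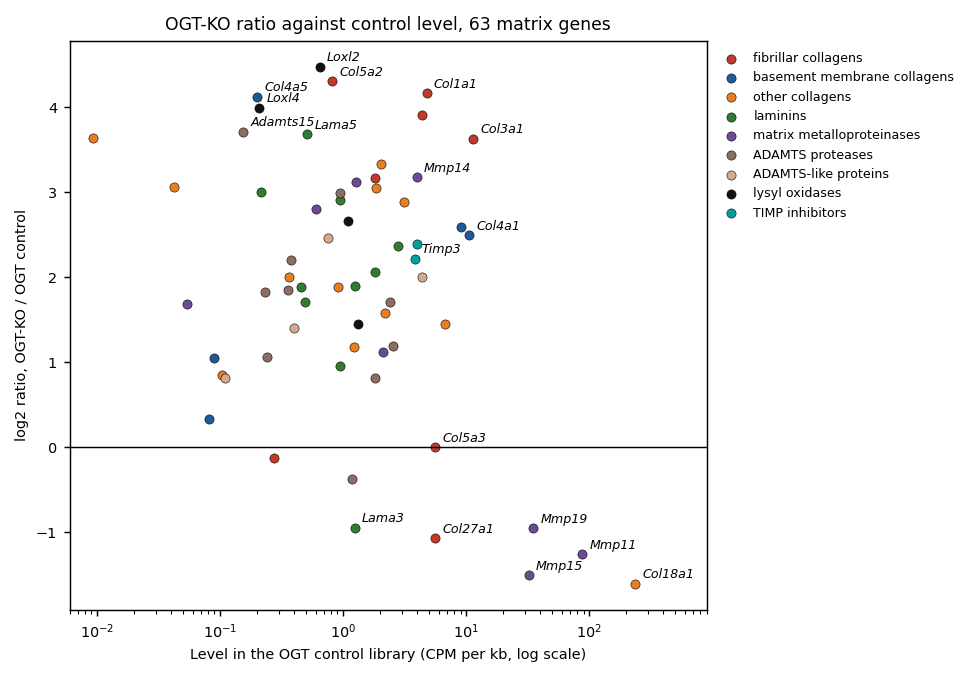
Log2 ratio of OGT-KO over OGT control (vertical axis) against the level in the OGT control library (CPM per kb, log axis) for the 63 matrix genes, coloured by family. Col18a1, Mmp11, Mmp19 and Mmp15 lie at the right end with ratios of -1.61 to -0.95, and Loxl2, Col5a2 and Col1a1 lie at the top with ratios of 4.17 to 4.48.

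Several members are neighbours in the genome: Col3a1 and Col5a2, Col6a1 and Col6a2, Adamts1 and Adamts5, and Col4a1 and Col4a2. Both members of each of these pairs rose, where 48 of the 63 members rose. Neighbours were not set against other pairs of members. In the pair of Col4a3 and Col4a4 neither passed the edgeR test, while Col4a4 passed the size rule. Col4a3bp, the ceramide transfer protein gene, had 30.7 CPM in OGT-KO and 32.5 CPM in OGT control (log2 ratio -0.09, -0.23 to 0.06), while the OGA-KO and OGA control pair had 33.9 and 32 CPM at 14 days and 37.2 and 34.1 CPM at 28 days, and was not called.

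Other genes of the same pathways also rose in OGT-KO, to different extents, where 26.1% of all genes rose. Of 37 rows (42 listed) for matrix glycoproteins and proteoglycans 33 rose and 1 fell (median log2 ratio 2.25), with Nid1, which links laminin to type IV collagen, at 5.0, Sparcl1 at 4.11, Ccn2 at 3.89 and Lum, a proteoglycan of collagen fibrils, at 3.84. Of 17 rows (20 listed) for collagen and laminin receptors 12 rose and 1 fell (median 1.46), with the laminin-binding integrin chains Itga6 at 4.19 and Itga3 at 3.76 and the collagen receptor kinase Ddr1 at 3.61. Of 20 rows (23 listed) for collagen synthesis and folding 10 rose and 3 fell (median 0.44). They included Fkbp10, a folding enzyme of procollagen, at 3.90, P3h3 at 2.17, the collagen chaperone Serpinh1 at 1.96 and Crtap at 1.94. Of 3 rows (7 listed) for procollagen cleavage 1 rose, the enhancer Pcolce at 1.80, while Bmp1, the protease that cuts the carboxy-terminal end of procollagens, stood at 0.15 and was not called. Of 17 rows (23 listed) for the plasminogen system and other matrix proteases 12 rose and 2 fell (median 0.84), with the plasminogen activator Plat at 7.60 (3462 counts in OGT-KO and 13 in OGT control), Adam15 at 3.17 and Ctss at 2.88.

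Markers of several cell types moved with OGT-KO too, in a test that called 26.1% of all genes risen and 26.6% fallen. The lists share genes, so their counts are not separate. Dcn, Lum, Postn, Sparc, Ecm1, Eln and Fbln2 are markers here and also stand among the matrix glycoproteins and proteoglycans above. Krt19 is in both the portal and the cholangiocyte list. Summed markers of activated stellate cells and myofibroblasts stood at 1600 CPM in OGT-KO, 257 CPM in OGT control and 221 to 282 CPM in the OGA libraries, and 14 of 14 rows (16 listed) rose. Quiescent stellate markers stood at 853 CPM in OGT-KO, 295 CPM in OGT control and 206 to 248 CPM in the OGA libraries, with 14 of 15 risen. Portal fibroblast and mesothelial markers stood at 144 CPM in OGT-KO, 23.4 CPM in OGT control and 20.2 to 35.3 CPM in the OGA libraries, with 7 of 9 rows (12 listed) risen. Cholangiocyte markers stood at 709 CPM in OGT-KO, 122 CPM in OGT control and 83.9 to 103 CPM in the OGA libraries, with 10 of 11 rows (15 listed) risen. Kupffer cell and macrophage markers stood at 1655 CPM in OGT-KO, 427 CPM in OGT control and 238 to 297 CPM in the OGA libraries, with 13 of 14 rows (18 listed) risen. All 3 neutrophil rows (9 listed) rose, at 19.0 CPM in OGT-KO, 2.77 CPM in OGT control and 3.32 to 5.63 CPM in the OGA libraries. Of 15 endothelial markers 4 rose and 4 fell, near the shares over all genes, with 496 CPM in OGT-KO, 375 CPM in OGT control and 437 to 472 CPM in the OGA libraries. Of 14 hepatocyte markers 9 fell and none rose, with 88914 CPM in OGT-KO, 121656 CPM in OGT control and 136941 to 145632 CPM in the OGA libraries. No marker with a row was at 0 in any library, the pancreas genes aside, and the part of these cell types in the members' ratios was not tested.

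In OGA-KO at 14 days no member reached a 2-fold difference, where 0.534% of 11801 genes were higher and 0.305% lower by the size rule. The ratios were small but leaned upwards: 56 of 63 lay above 0, with a median of 0.22. Of the 11801 genes with 1 CPM or more in the higher library 50.4% lay above 0, while the 63 members were counted at any level. The fibrillar collagens had a median of 0.38. Col1a1 was at 0.69 (0.53 to 0.86), Col3a1 at 0.57 (0.46 to 0.69) and Col1a2 at 0.46 (0.29 to 0.63). Among the others Col6a2 was at 0.66, Col16a1 at 0.63 and Adamts9 at 0.75. Adamts13 was at 0.71, with 5.11 CPM in OGA-KO and 3.10 CPM in control. Adamts6 was at 0.83, at 1.37 CPM in OGA-KO and 0.735 CPM in control. Counting intervals lay above 0 for 23 members and below 0 for 3. Intervals were not counted over all genes, so these counts do not set the members against other genes. On the lower side Adamts1 was at -0.34, Loxl4 at -0.33 and Mmp24 at -0.25. Summed markers of activated stellate cells were at 282 CPM in OGA-KO and 241 CPM in control, and quiescent stellate markers at 248 CPM in OGA-KO and 206 CPM in control. Cholangiocyte markers were at 103 CPM in OGA-KO and 83.9 CPM in control, with 9 of 11 ratios above 0. Portal fibroblast and mesothelial markers were at 35.3 CPM in OGA-KO and 29.5 CPM in control, with 9 of 9 above 0. Of the endothelial ratios 13 of 15 lay above 0. Kupffer cell and macrophage markers had 7 of 14 ratios above 0, hepatocyte markers 7 of 14 and neutrophil markers 0 of 3. The part of these cell types was not tested.

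In OGA-KO at 28 days 1 member was 2-fold higher and 2 were lower, where 1.7% of 11851 genes were higher and 0.869% lower. Loxl4 was lower, at 4.08 CPM in OGA-KO and 15.6 CPM in control (log2 ratio -1.92, -2.26 to -1.62). Adamtsl5 was lower as well, at 0.687 CPM in OGA-KO and 1.57 CPM in control (log2 ratio -1.10, -2.10 to -0.34). Adamtsl1 was higher, at 1.25 CPM in OGA-KO and 0.535 CPM in control (log2 ratio 1.12, 0.28 to 2.25). With a minimum of 5 CPM only Loxl4 passed. Of 63 ratios, counted at any level, 38 lay above 0, with a median of 0.08. Among the 11851 genes with 1 CPM or more in the higher library 50.8% lay above 0. Counting intervals lay above 0 for 13 members and below 0 for 6, again without a count over all genes. Adamtsl2 at 0.73, Col6a2 at 0.55, Col1a2 at 0.51 and Timp2 at 0.50 were among the 13, and Col12a1 at -0.51, Col15a1 at -0.41, Col27a1 at -0.39 and Mmp19 at -0.23 among the 6, while Col1a1 was at 0.15 (counting interval around 0). Lamc3 was at 0.86 (0.27 to 1.55), with 2.43 CPM in OGA-KO and 1.30 CPM in control. Summed markers of activated stellate cells were at 278 CPM in OGA-KO and 221 CPM in control. Those of quiescent stellate cells were at 207 CPM in OGA-KO and 218 CPM in control. Ratios lay above 0 for 9 of 9 portal fibroblast and mesothelial, 12 of 14 Kupffer cell and macrophage and 7 of 11 cholangiocyte markers. The same held for 7 of 15 endothelial, 7 of 14 hepatocyte and 3 of 3 neutrophil markers. The part of all these cell types was not tested.

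Over both times, edgeR called none of the 63 members in OGA-KO, where it called 0.0333% of 12026 genes. At an unadjusted p under 0.05, 13 members passed, against 13% of all genes. DESeq2 (6 members unadjusted) and an edgeR fit of the 4 OGA libraries alone (9 unadjusted) also called none, and DESeq2 gave no adjusted p for 37 of the members. Col1a2, higher in OGA-KO at both times, had the lowest adjusted p of the members in edgeR (adjusted p = 0.167). The difference between the OGT-KO effect and the OGA-KO effect was tested in the same fit, and was above 0 for 46 members and below 0 for 6, where 21.4% and 22.7% of all genes passed. DESeq2 passed 29 and 5, where 6.05% and 11.4% of genes passed. Without the OGA-KO library of 28 days and without the line term edgeR passed 0 members (33 at an unadjusted p under 0.05) and 0 genes in all.

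Few members differed 2-fold between the times. Counting intervals of the ratio of 28 over 14 days lay above 0 for 8 members and below 0 for 11 in OGA control. In OGA-KO they lay above 0 for 3 and below 0 for 17. Here too, intervals were not counted over all genes. In OGA control 1 member, Loxl4, was 2-fold higher at 28 than at 14 days (log2 ratio 1.12), where 0.927% of 11758 genes passed either way. There 28 of 63 ratios lay above 0, against 49.5% of the 11758 genes. In OGA-KO 1 member, Adamtsl5, was 2-fold lower at 28 days (log2 ratio -1.03), where 1.32% of 11858 genes passed either way. There 15 of 63 ratios lay above 0, against 48.8% of the 11858 genes. The genes of these shares had 1 CPM or more in the higher library, while the 63 members were counted at any level. Col1a1 did not reach 2-fold in OGA-KO, at 17.4 CPM at 28 days and 30.7 CPM at 14 days (log2 ratio -0.82). In OGA control it was at 15.6 CPM at 28 days and 18.9 CPM at 14 days (log2 ratio -0.28). The OGA-KO library of 14 days enters both this comparison and the one with its own control, so they are not independent.

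The control libraries of both lines differed at 28 days by more than the OGA pairs did. OGT control was 2-fold higher than OGA control for 7 members and lower for 5, where 4.72% and 5.72% of 11782 genes passed, so 58.3% of the calls were higher. By column totals 14 were higher and 4 lower, or 77.8% higher. Loxl4 had 0.780 CPM in OGT control and 15.6 CPM in OGA control (log2 ratio -4.19). Lamc3 had 5.59 CPM in OGT control and 1.30 CPM in OGA control (log2 ratio 2.04). Col5a3 had 34.2 CPM in OGT control and 128 CPM in OGA control (log2 ratio -1.90). Mmp14 had 12.9 CPM in OGT control and 34.0 CPM in OGA control (log2 ratio -1.39), and Mmp15 had 165 CPM in OGT control and 78.9 CPM in OGA control (log2 ratio 1.07). Adamtsl2, Col6a3, Adamts2, Adamts1 and Loxl2 were higher in OGT control by log2 ratios of 1.02 to 1.62. For Col3a1 the ratio was 0.996 and for Col1a1 0.86. Line, pool and library cannot be told apart here, since each line has 1 control library at that time.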

How the data were processed

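Total RNA was taken with TRIZOL from about 50 mg of liver and made into libraries with a Tecan mRNA kit, per the labels' protocols. The authors deposited raw counts per Ensembl gene and a table of CPM; STAR, Subread, edgeR and mm39 are named in the submitters' processing notes, without versions, and the strand setting and the filter that left 12027 rows are not given in the sources used here. The deposited CPM values are the counts divided by 1 constant per library and served as a check only. The CPM printed here are the deposited counts divided by TMM effective library sizes. Read as a library total, the constant of the deposited CPM exceeded the counts in the rows by 158367 in OGT-KO and 22723 in OGT control. In the OGA libraries it matched them. Each row has 28 or more counts in the OGA libraries together, while 56 rows hold 0 in both OGT libraries. A gene with counts in OGT-KO but few in the OGA libraries may thus have no row. Total counts were 20433100 to 29327722, which sets the counting intervals (exact, 95%), and these cover counting error only, since PCR copies cannot be told from separate molecules.

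Log2 ratios had a prior count of 2. edgeR 4.0.16 (R 4.3.3) fitted all 6 libraries with 5 coefficients (intercept, line, day, OGA-KO, OGT-KO), which left 1 residual degree of freedom, on 12026 genes past its filter, with an adjusted p threshold of 0.05; the day term and the OGA-KO effect come from the OGA libraries. Alternatives were column totals, DESeq2 1.42.0, other prior counts and minimum levels, and fits with other terms or libraries. The p-values measure only the spread among pooled OGA libraries, and nothing ties it to single animals.

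Every-library values are given for members with at least 10 CPM in a library or a 4-fold difference between a knockout and its control. The members and the gene lists were chosen with earlier results of these data known. Names, transcript lengths and exon overlaps came from GENCODE's GRCm38 annotation, which gave 12019 rows a symbol, and promoter windows from RefSeq's GRCm38.p6.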

Additional observations from a re-analysis of the deposited data

Results flagged for a closer look

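Col27a1 and Col15a1 went opposite ways in the OGA-KO pairs of the 2 times, with counting intervals that did not reach 0 at either. The log2 ratio of Col27a1 was 0.36 in OGA-KO over control at 14 days and -0.39 at 28 days. That of Col15a1 was 0.22 at 14 days and -0.41 at 28 days. Each ratio compares 1 pooled library with 1 other, and the difference between the times was not tested. The OGA-KO library of 28 days is the one with pancreas transcripts.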

How the results depend on the processing

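No paired analysis was possible because each group is 1 pooled library and the labels carry no replicate numbers. In OGT-KO the count past the size rule was 53 and ranged from 47 to 55 over the other scalings, prior counts and minimum levels. The edgeR count of 54 became 44 without the line term, 40 with DESeq2 and 56 by column totals. In a fit chosen after seeing the data, without the OGA-KO library of 28 days and the line term, it became 32. The spread of that fit is the difference between the OGT and OGA controls at 28 days alone. Of the 48 members that rose, 31 were called in all 5 alternatives, and of the 6 that fell, 0. The difference between the OGT-KO and OGA-KO effects passed for 52 members, 34 with DESeq2 and 0 in the fit without both that library and the line term; the cause was not tested. In OGA-KO at 28 days the size rule gave 3 members, and 1 each with a prior count of 10 and with at least 5 CPM; between the times in OGA-KO it gave 1, and 0 under each of these settings. Column totals shifted the log2 ratios of OGT-KO over control by 0.37 for the median of all genes and those between the controls by 0.22. With that shift Col5a3 turned to an edgeR log2 of 0.37 (adjusted p = 0.0305). Members under 1 CPM rest on few counts a library (18 for Loxl4 in OGT control), which limits their ratios.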
